A study of Mus musculus with 19 samples.

Results

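Lymphocyte and plasma cell transcripts were followed in RNA sequencing of the microdissected CA1 region of the mouse hippocampus. The set held 10 of the 48709 genes in the count files. Of these, 5 belong to the B lineage (Igkc, Ighm, Igha, Jchain and Mzb1) and 5 to T cells and cytotoxic lymphocytes (Cd3e, Cd3g, Cd8a, Cd8b1 and Nkg7). The genes were chosen by name after values of these data had been seen, among them the higher level of Igkc in old mice, and they were read from the raw counts of all 19 libraries with no limit on low counts. Differences of the 10 genes between groups are therefore given as descriptions. Where values of these genes from the fit across all genes are printed, they stand beside the share of all genes and support nothing.

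All libraries came from male wild-type C57B/6J mice. Young mice were 3 months old (n = 6) and received control oligonucleotides. Old control mice were 16.5 months old (n = 6) and received the same control. Old anti-miR-mix mice, also of 16.5 months (n = 7), received inhibitors of 3 microRNAs, namely miR-146a-5p, miR-181a-5p and, as the third, miR-148a-3p. In every group the oligonucleotides were packed in lipid nanoparticles and injected into the dorsal hippocampus, so that no library came from an uninjected brain, and the mice went through water maze training before the tissue was taken. Titles begin with anti-miR-mix also for young and old control libraries, and groups were taken from the library descriptions. Whether the mice were perfused to remove blood was not given in the sources used here.

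B cells carry immunoglobulin on their surface, and once they have matured into plasma cells they secrete it. An immunoglobulin is built from heavy and light chains, and each chain joins a variable segment, chosen by rearrangement of the gene in a single cell and inherited by its clone, to a constant region that sets the class of the antibody. T cells recognise antigen through a receptor that signals through the CD3 chains, and the CD8 co-receptor marks the T cells that kill target cells. In the healthy brain few lymphocytes lie in the tissue itself, and most reside in the meninges, the choroid plexus and the vessels.

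The libraries held 26653511 to 38908947 reads assigned to genes, and levels are given as reads of a gene per 1000000 of these (CPM). Genes of CA1 pyramidal neurons were present throughout, with a summed level of 709.9 to 973.1 CPM over 5 markers. Old control libraries 5 and 6 stood apart. Their counts over 12780 genes (mean of 100 reads or more) differed by a chi-square of 2.18 per degree of freedom, against 6.10 or more in each of the other 170 pairs, and named calls that are lost when both are counted as 1 library are given beside their values. Young library 3 and old anti-miR-mix libraries 4 and 7 held the most Igha reads and are named where they bear on a value. In bulk tissue, fewer cells of a type and less RNA per cell cannot be told apart. The labels give a group and a replicate number for each library, and each library was taken as 1 animal. The p values below measure the spread between these libraries.

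In the GENCODE M21 annotation (GRCm38, mm10), Igkc (ENSMUSG00000076609), the constant region of the kappa light chain, lies on the plus strand at chr6:70726435-70726966. Ighm (ENSMUSG00000076617), the heavy chain of IgM, and Igha (ENSMUSG00000095079), that of IgA, lie on the minus strand at chr12:113418558-113422730 and chr12:113254830-113260236. Jchain (ENSMUSG00000067149), which joins the units of polymeric IgM and IgA, is at chr5:88519809-88527891, and Mzb1 (ENSMUSG00000024353), a chaperone of immunoglobulin assembly, is at chr18:35647267-35649367. The CD3 chains Cd3e (ENSMUSG00000032093) and Cd3g (ENSMUSG00000002033) neighbour each other at chr9:44998740-45009627 and chr9:44969572-44980431. The co-receptor chains Cd8a (ENSMUSG00000053977) and Cd8b1 (ENSMUSG00000053044) are neighbours on the same chromosome as Igkc, at chr6:71373427-71379173 and chr6:71322788-71337494. Nkg7 (ENSMUSG00000004612), a granule protein of cytotoxic lymphocytes, is at chr7:43437073-43438249. Igkc overlaps the noncoding gene Gm30211 and Mzb1 overlaps SPATA24, each on the same strand, and Cd3e overlaps Gm48719 on the opposite and Gm48720 on the same strand, so that reads of these pairs can be exchanged.

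Igkc was close to absent in 5 of 6 young libraries and present in every old one. Young libraries held 1 to 4 Igkc reads, except library 3 with 33. The old controls held 55 to 131 (median 68.5), and the libraries under the inhibitors 25 to 236 (median 96). Each old control library lay above each young one, whereas the old anti-miR-mix libraries reached from under the lowest to above the highest old control. Igkc averaged 0.235 ± 0.371 CPM (SD, n = 6) among the young, 2.45 ± 0.641 CPM (SD, n = 6) among the old controls and 3.22 ± 2.03 CPM (SD, n = 7) under the inhibitors. The ratio of means was 10.4 for old control against young and 1.31 for old anti-miR-mix against old control. The spread was wider in the old anti-miR-mix group, whose libraries 2 and 1 (0.912 and 1.42 CPM) lay under all old controls and whose libraries 3, 5 and 6 (6.07, 3.72 and 5.63 CPM) lay above them. The lowest of them was also under young library 3 at 0.988 CPM.

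**Figure D1:**
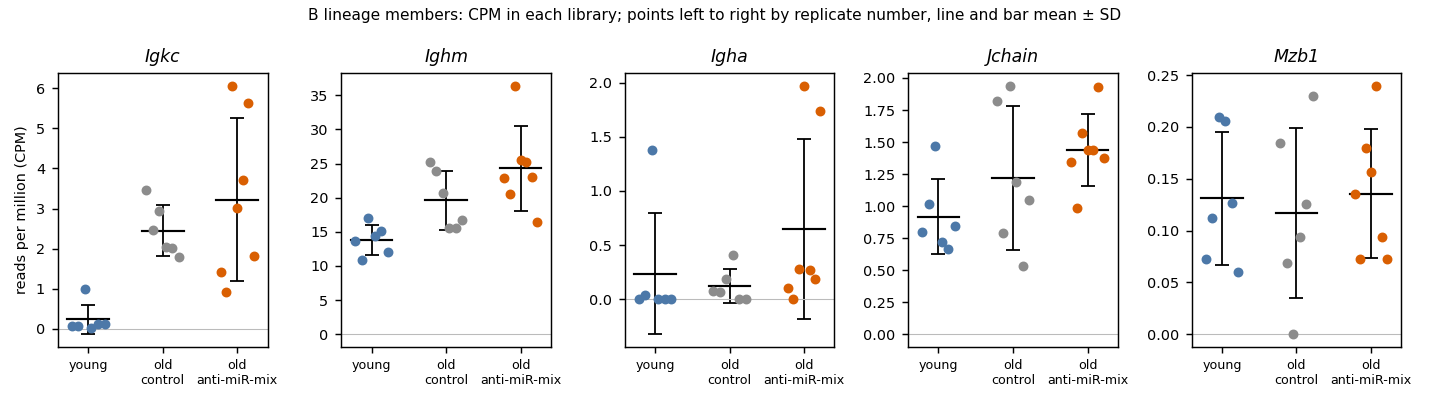
CPM of the 5 B lineage genes in each library (y axis, with its own range for each gene) by group (x axis). Points are libraries from left to right by replicate number, and lines with bars are mean ± SD. The old control libraries of Igkc lie between 1.80 and 3.46 CPM, above the young libraries, of which library 3 alone (0.988 CPM) exceeds 0.13 CPM.

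In the fit across all genes with edgeR, the log2 fold change of Igkc was 3.35 ± 0.58 (SE) for old control against young, 0.39 ± 0.40 (SE) for old anti-miR-mix against old control and 3.74 ± 0.56 (SE) for old anti-miR-mix against young. Without young library 3 the first and the last became 4.85 and 5.24. A library number from 1 to 4, read from the deposited log2 table, is called processing group here. What the number stands for was not given in the sources. The old control level of Igkc exceeded the young one in each of the 3 processing groups that held both. Against old control, the old anti-miR-mix level was lower in processing groups 1 and 2 (1.42 against 2.96 CPM and 1.36 against 2.49 CPM) and higher in processing group 4 (5.63 against 1.90 CPM), and with processing group as a term the log2 fold change turned to −0.16. No old control library was in processing group 3, which held old anti-miR-mix libraries 3, 4 and 5.

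Ighm was the most abundant of the 10 genes in every library. It had 290 to 570 reads among the young (median 439.5), 496 to 957 among the old controls (median 531.5) and 455 to 1417 under the inhibitors (median 742). The group medians stood in that order and the groups overlapped, with old anti-miR-mix library 3 at 36.4 CPM above all others and libraries 7 of that group and 3 of the young at 16.4 and 17.1 CPM side by side. Ighm averaged 13.9 ± 2.20 CPM (SD, n = 6) among the young, 19.6 ± 4.29 CPM (SD, n = 6) among the old controls and 24.3 ± 6.18 CPM (SD, n = 7) under the inhibitors. The log2 fold changes were 0.51 ± 0.16 (SE), 0.29 ± 0.15 (SE) and 0.80 ± 0.16 (SE) for old control against young, old anti-miR-mix against old control and old anti-miR-mix against young. Ighm exceeded Igkc far more in young than in old libraries. There were 100.2 to 557 Ighm reads for each Igkc read in 5 young libraries and 17.3 in young library 3, against 7.01 to 9.67 in old control and 4.10 to 22.5 in old anti-miR-mix libraries. Per kilobase of exon, Ighm stood at 7.36 CPM in young and 10.4 CPM in old control libraries, and Igkc at 0.441 and 4.61 CPM. Defining B cell genes were near their floor. Cd79a, a signalling chain of the B cell receptor, had 1 to 9 reads, and Ms4a1, which encodes CD20, 0 to 7 reads per library, and their part in the Ighm level was not tested.

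Igha was a gene of few libraries. Of the 210 Igha reads, 63 lay in old anti-miR-mix library 4, 48 in library 7 of the same group and 46 in young library 3. The remaining 16 libraries held 0 to 13, and 7 of them held none, which allows up to 3 reads in each. By group, Igha was present in 2 of 6 young, 4 of 6 old control and 6 of 7 old anti-miR-mix libraries. Those libraries set the means of 0.236 ± 0.559 CPM (SD, n = 6) for the young, 0.123 ± 0.154 CPM (SD, n = 6) for the old controls and 0.650 ± 0.831 CPM (SD, n = 7) under the inhibitors, and each SD exceeded its mean. In the same 3 libraries the monocyte gene Ly6c2 was also at its highest, with 59, 40 and 28 reads against 1 to 23 in the other 16. Aqp1, a water channel of the choroid plexus and of red cells, had 121, 73 and 46 reads there against 7 to 43. These were the 2 genes with the same 3 leading libraries as Igha among 135 listed genes with at least 5 reads in a library. The summed level of 8 neutrophil and monocyte genes was highest of its group in young library 3 (3.77 CPM) and in old anti-miR-mix library 4 (10.9 CPM). What these values contribute to Igha was not tested.

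Jchain and Mzb1 overlapped between all groups. Jchain had 21 to 49 reads in young (median 27.5), 17 to 69 in old control (median 35) and 27 to 62 under the inhibitors (median 46). Its mean was 0.918 ± 0.294 CPM (SD, n = 6), 1.22 ± 0.560 CPM (SD, n = 6) and 1.44 ± 0.282 CPM (SD, n = 7). Jchain was thus present in young libraries that held almost no Igkc. Mzb1 had 0 to 8 reads in any library and a mean of 0.131, 0.117 and 0.136 CPM in the same order of groups. At this depth no difference of Mzb1 was detectable.

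The T cell and cytotoxic genes were present at a low level in all groups, with medians that were highest in old anti-miR-mix libraries. Cd8a had 3 to 19 reads in young, 5 to 23 in old control and 11 to 41 under the inhibitors. Its mean was 0.294 ± 0.210 CPM (SD, n = 6), 0.419 ± 0.284 CPM (SD, n = 6) and 0.732 ± 0.301 CPM (SD, n = 7), and all 3 groups overlapped. Cd8b1 had 0 to 10, 4 to 12 and 4 to 23 reads, Cd3e 1 to 9, 3 to 11 and 6 to 17 reads, Cd3g 0 to 17, 2 to 9 and 3 to 21 reads, and Nkg7 0 to 10, 3 to 6 and 2 to 17 reads in the same order of groups. No pair of groups was separated in any of these genes. Old anti-miR-mix library 4 had the highest CPM of all 19 for Cd8a (1.28), Cd8b1 (0.720) and Cd3e (0.532), library 2 of that group for Cd3g (0.547) and library 3 for Nkg7 (0.437). Young libraries 1, 2 and 6 were at the other end, with 6, 10 and 15 reads over the 5 genes together.

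**Figure D2:**
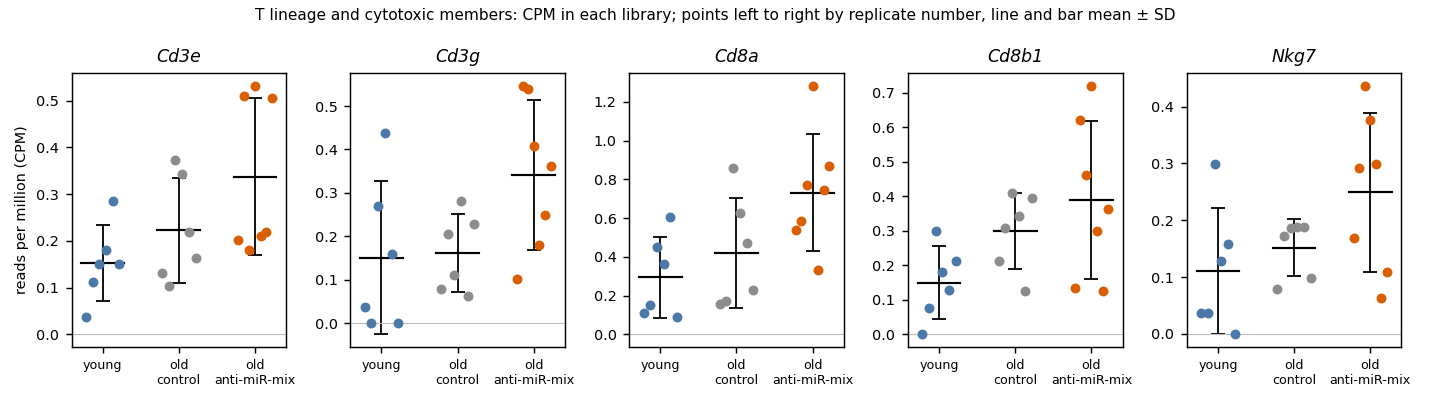
CPM of the 5 T lineage and cytotoxic genes in each library (y axis, with its own range for each gene) by group (x axis). Points are libraries from left to right by replicate number, and lines with bars are mean ± SD. The groups overlap in each gene, and old anti-miR-mix library 4 is the highest for Cd8a at 1.28 CPM.

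Between old anti-miR-mix and young libraries, the log2 fold changes of the T cell and cytotoxic genes lay close together, at 1.26 ± 0.42 (SE) for Cd8a, 1.29 ± 0.45 (SE) for Cd8b1, 1.05 ± 0.39 (SE) for Cd3e, 1.04 ± 0.54 (SE) for Cd3g and 1.12 ± 0.50 (SE) for Nkg7. For old control against young they ran from −0.02 ± 0.62 (SE) for Cd3g to 0.92 ± 0.49 (SE) for Cd8b1. Between the old groups they ran from 0.37 ± 0.41 (SE) for Cd8b1 to 1.06 ± 0.55 (SE) for Cd3g. With processing group as a term, this last difference turned to −0.21 for Cd8b1 and −0.13 for Nkg7. Within processing groups, Cd8a was higher in old anti-miR-mix than in young libraries in 4 of 4 and higher than in old control libraries in 2 of 3.

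The edgeR fit took genes with 5 reads or more in 50% of libraries, which 8 of the 10 genes met and Igha and Mzb1 did not. For old control against young, 1 of the 8 passed an adjusted p of 0.05 and was higher (Igkc), where 2.67% of all 19286 genes tested passed in either direction and 1.32% were higher. Igkc was also the single tested member whose groups did not overlap, as 1.01% of all genes did with old control higher. Between old anti-miR-mix and old control, 0 of 8 passed with edgeR, where 0.669% of all genes did, and 0 passed with DESeq2. An unadjusted p under 0.05 with edgeR was found for 0 of the 8 and for 2026 of the 19286 genes. Groups that did not overlap were found for 0 of the 8, where 0.441% of all genes did with old anti-miR-mix higher. Between old anti-miR-mix and young, 2 of 8 passed and were higher (Igkc and Ighm), where 6.2% of all genes passed in either direction and 4.57% were higher, and 0 had groups that did not overlap, where 1.76% of all genes did. These genes were named with such values known, so nothing is read from the counts. For old control against young the count was 2 in place of 1, with Ighm added, when processing group was a term or when the other group was left out of the fit.

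B lineage reads outnumbered T lineage reads in every library. The 5 B lineage genes took 89.8% of the reads of all 10 genes in old anti-miR-mix library 2 (Clopper-Pearson 95% interval 87.3 to 92.0, counting error only) and 98.5% in young library 1 (96.8 to 99.5), with the other libraries between. The mean share was 95.05 ± 2.69% (SD, n = 6) among the young, 94.7 ± 2.30% (SD, n = 6) among the old controls and 93.3 ± 2.81% (SD, n = 7) under the inhibitors, values that differed by less than the spread within a group. Per kilobase of exon the shares were 95.9%, 96.2% and 95.3%. The share rested on Ighm, which took 74.6 to 94.3% of the B lineage reads. Without Ighm the mean share was 64.0 ± 17.7% (SD, n = 6), 75.4 ± 7.63% (SD, n = 6) and 70.7 ± 13.6% (SD, n = 7) in the same order of groups. It was then 42.5% and 40.8% in young libraries 4 and 5 and 43.5% in old anti-miR-mix library 2, so that T lineage reads were the more numerous in these 3.

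Summed over its genes, the T lineage stood at 0.218 to 1.47 CPM in young, 0.660 to 1.94 CPM in old control and 1.15 to 3.32 CPM in old anti-miR-mix ones. The B lineage without Ighm stood at 0.920 to 4.04 CPM, 2.66 to 5.54 CPM and 1.97 to 8.10 CPM. Young library 3 was the highest young library in both sums. The lineages did not follow each other closely over the old anti-miR-mix libraries, since library 2 had the second highest T lineage sum of that group (2.55 CPM) and the lowest B lineage sum without Ighm. Over all 19 libraries, Spearman's rho was 0.90 between Igkc and all immunoglobulin variable segments, 0.85 between Igkc and Ighm, 0.83 between Cd8a and Cd3e, 0.63 between Cd8a and Cd3g, and 0.47 between Igkc and Cd8a. These describe libraries that share group, tissue and sequencing, and values of a few reads carry large counting error.

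By mean CPM per kilobase of exon, the order in young libraries was Ighm (7.36), Igkc (0.441), Jchain (0.365), Nkg7 (0.120), Mzb1 (0.108), Cd8b1 (0.1003), Igha (0.088), Cd8a (0.081), Cd3g (0.046) and Cd3e (0.037). Ighm stood alone at the top, Igkc and Jchain differed by less than the spread of Igkc, and neighbours from Nkg7 down lay within their spread between libraries. In old control libraries Igkc (4.61) moved clear of Jchain (0.484), with Cd8b1 next (0.201). In old anti-miR-mix libraries the order was Ighm (12.9), Igkc (6.06), Jchain (0.572), Nkg7 (0.272), Cd8b1 (0.262), Igha (0.244) and Cd8a (0.201). From Nkg7 down, neighbours again lay within their spread.

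Variable segments name the rearranged chains, but few reads fell on them. Those of the heavy chain held 8 reads in young, 83 in old control and 169 in old anti-miR-mix libraries, summed by group. Ighm held 2673, 3713 and 5512 reads in the same order, and the source of this gap was not tested. Of 348 annotated immunoglobulin variable segments, 109 had a read in any library. Young libraries held 0 to 28 such reads on 0 to 8 segments, old controls 21 to 52 on 6 to 15 segments, and libraries under the inhibitors 8 to 127 on 4 to 31 segments. Each old control library had more than each young one other than library 3, which had 28 against a lowest old control value of 21. The sums were 42, 218 and 464 reads in the 3 groups. T cell receptor variable segments, summed over all chains, did not show this step, with 5 to 23, 14 to 34 and 14 to 34 reads per library. By chain, alpha segments averaged 0.315, 0.333 and 0.314 CPM and beta segments 0.107, 0.240 and 0.307 CPM in the same order of groups. The groups overlapped for beta segments, with 1 to 10, 2 to 18 and 5 to 16 reads per library. Variable reads of a rearranged transcript share it with a constant region, so they are no separate evidence for the constant region genes.

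The leading segments varied between libraries. A total of 23 immunoglobulin segments reached 5 reads in a library, and 17 of them did so in a single library. In old anti-miR-mix library 5, Igkv14-111 had 51 and Ighv2-3 26 reads, and neither had a read in any other library. In library 6 of that group, Igkv8-27 had 34 reads, Ighv1-76 23 and the lambda segment Iglv1 14. In old control library 3, Ighv3-6 had 21 reads, and in young library 3 Igkv5-39 had 14 and Ighv1-64 6. Igkv4-55 was the most shared, with 33 reads in old control library 1 and 6 to 15 reads in 5 further old libraries. The share of the leading segment among kappa variable reads was 68.0% in old anti-miR-mix library 5 (Clopper-Pearson 95% interval 56.2 to 78.3) and 23.7% in library 4 of that group (11.4 to 40.2). By contrast, 3 T cell receptor segments reached 5 reads in a library, and the highest had 7.

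Old control libraries 5 and 6, the most alike in their counts, were also led by the same pair of segments. Igkv4-53 had 20 and 17 reads and Ighv1-18 had 18 and 12 reads in them, whereas no other library had more than 3 reads of Igkv4-53 or 4 of Ighv1-18. These segments made up 90.9% and 70.8% of their kappa and 90.0% and 100% of their heavy variable reads. Of 171 pairs of libraries, this was the 1 with the same leading heavy and the same leading kappa segment. The labels give them separate replicate numbers, and whether they came from separate animals was not tested. Igkc had 64 and 55 reads in them, and its log2 fold change for old control against young was 3.40 with both counted as 1 library and between 3.08 and 4.85 over all settings.

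**Figure D3:**
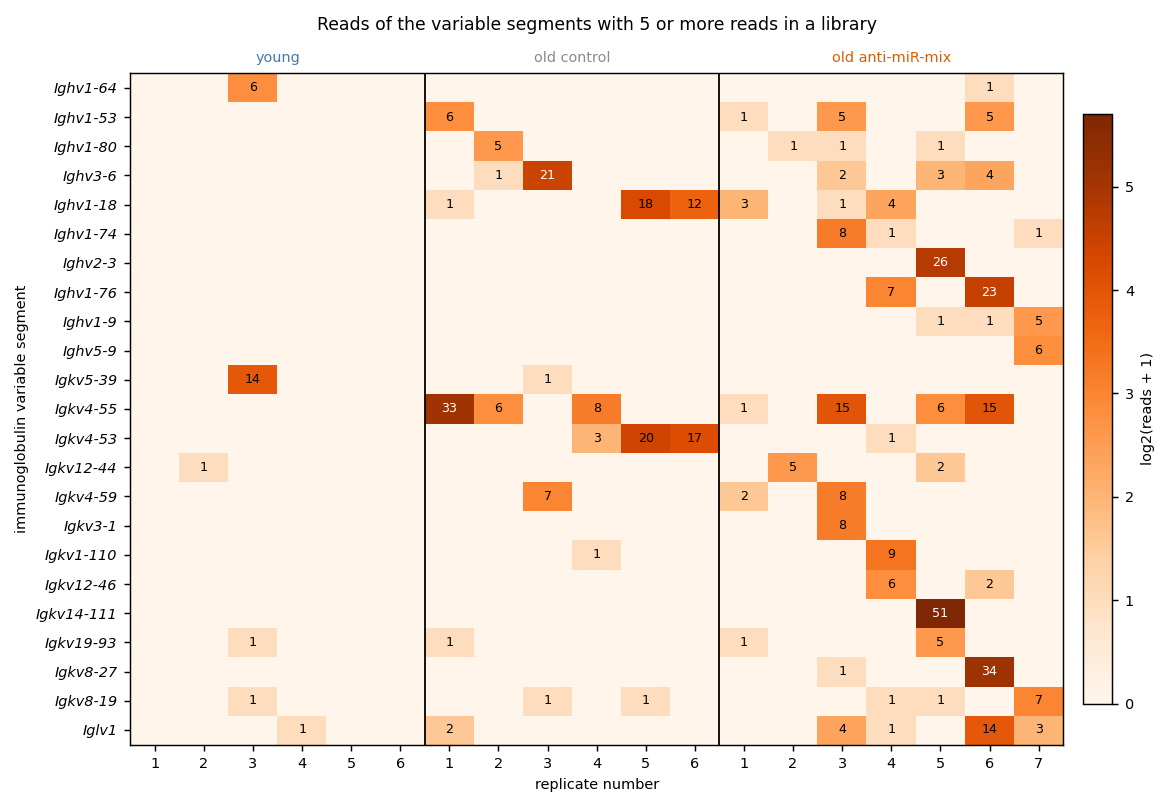
Reads of the 23 immunoglobulin variable segments with at least 5 reads in a library (y axis) in each of the 19 libraries (x axis, replicate number within group). Numbers are reads, colour is log2(reads + 1), and blank cells have none. Igkv4-53 and Ighv1-18 have their highest reads in old control libraries 5 and 6, and Igkv14-111 with 51 reads is found in old anti-miR-mix library 5 alone.

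Segments of one family resemble each other, and the last bases of 6 germline segments that led in 1 or more libraries are shown to place these names. Each line gives the last 60 bases of the annotated segment, 5′ to 3′, from the GRCm38 genome with GENCODE M21 positions, and capitals mark bases that differ from Igkv4-55 (for kappa) or Ighv1-18 (for heavy) at the same place from the end.
Igkv4-55, chr6:69607275-69607828, minus strand: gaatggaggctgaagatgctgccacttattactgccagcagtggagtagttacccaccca
Igkv4-53, chr6:69648824-69649363, minus strand: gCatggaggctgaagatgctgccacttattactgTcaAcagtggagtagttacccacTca
Igkv14-111, chr6:68256389-68256869, plus strand: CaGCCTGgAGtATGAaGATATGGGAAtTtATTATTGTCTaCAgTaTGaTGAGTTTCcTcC
Igkv8-27, chr6:70171809-70172270, minus strand: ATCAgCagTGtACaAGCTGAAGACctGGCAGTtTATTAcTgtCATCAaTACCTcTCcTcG
Ighv1-18, chr12:114682632-114683065, minus strand: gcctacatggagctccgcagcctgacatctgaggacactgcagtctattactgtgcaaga
Ighv1-76, chr12:115847881-115848331, minus strand: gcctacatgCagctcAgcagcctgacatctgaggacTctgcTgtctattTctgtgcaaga

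Igkv4-53 differed from Igkv4-55 at 4 of these 60 bases and Ighv1-76 from Ighv1-18 at 5, whereas Igkv14-111 differed at 48 and Igkv8-27 at 45. Over whole segments, Igkv4-55 and Igkv4-53 shared 0 words of 50 bases, the length of the reads. Of the words of Igkv14-111, 100% occurred in no other annotated segment, against 46.7% for Igkv4-55, 60.4% for Igkv4-53, 64.2% for Ighv1-18, 81.2% for Ighv1-76 and 91.6% for Igkv8-27. Reads of Igkv4-55 are thus the least certain to belong to a single segment, and somatic mutation of a rearranged gene can move reads between names as well.

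Switched antibody classes differed from library to library in the same manner. Igha, Ighg1, Ighg2b, Ighg2c and Ighg3 encode the constant regions of IgA and the IgG classes, and the single libraries described here were chosen after their values were seen. Old anti-miR-mix library 6 had 138 reads of Ighg2b, where all others but library 4 (21 reads) had 0 to 4. Library 3 of that group had 76 reads of Ighg1, where library 4 had 15 and all others 0 to 2. Young library 3, the young library with Igkc, was led by Igha with 46 of its 61 switched reads. Ighg2c formed an even background of 7 to 21 reads in 16 libraries and stood at 42, 32 and 47 in libraries 2, 4 and 7 under the inhibitors. Ighe had no read in any library, which allows up to 3 in each. Summed over the 5 classes, old control libraries stood at 0.313 to 0.905 CPM and old anti-miR-mix libraries at 0.404 to 5.14 CPM. Old anti-miR-mix library 5, with 51 reads of a single kappa segment, had 33 switched reads in all. The lambda constant gene Iglc1 had 14 reads in library 6, together with the 14 of Iglv1, and 0 to 7 elsewhere.

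**Figure D4:**
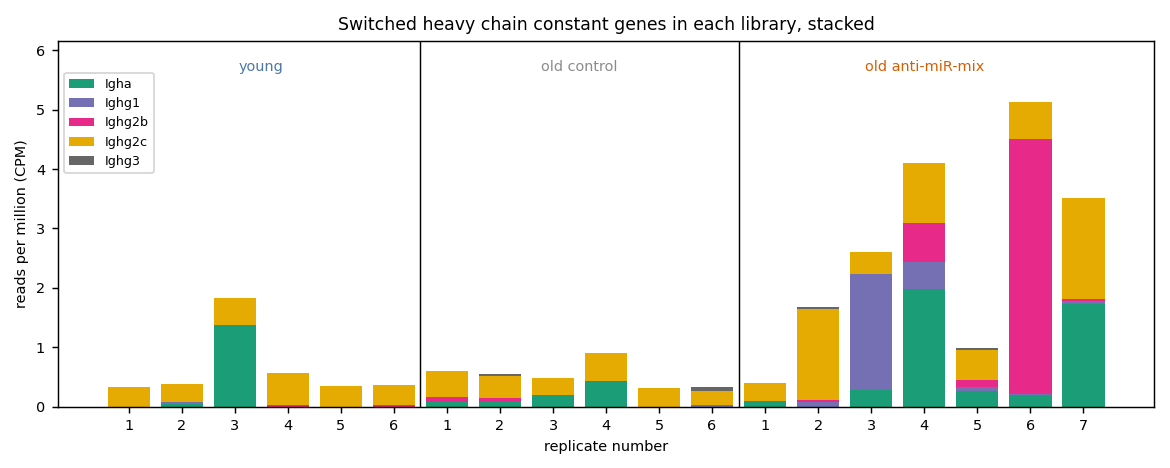
Summed CPM of Igha, Ighg1, Ighg2b, Ighg2c and Ighg3 in each library (y axis, stacked by gene), by replicate number within group (x axis). The old control libraries lie between 0.313 and 0.905 CPM, and among the old anti-miR-mix libraries 3 is led by Ighg1, 6 by Ighg2b, and 4 and 7 by Igha.

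Other lymphocyte genes were then tested to see whether the wider cell programmes moved with the 10 genes. A list of 75 further genes of B cells, plasma cells, immunoglobulin constant regions, T cells and cytotoxic or resident memory lymphocytes was used, of which 47 had enough reads. For old control against young, 1 was higher and 1 lower. Gzmk, a granzyme of memory CD8 T cells, had 12 to 23 reads in young and 25 to 33 in old control libraries, so that these groups did not overlap in CPM (log2 fold change 0.75 ± 0.16 (SE), adjusted p = 0.0157 by edgeR with Benjamini-Hochberg adjustment). Xbp1, a factor of the secretory pathway that plasma cells need and that other cells also express, fell from 73.5 to 60.6 CPM (log2 fold change −0.27 ± 0.06 (SE), adjusted p = 0.0126 by edgeR). The calls of Gzmk and Xbp1 were each lost in 1 of 10 other settings, under DESeq2 for Gzmk. Beside these 2 of 47 genes stand the 2.67% of all genes called in this comparison. The median log2 fold change of the 47 genes was 0.15, beside 0.01 for all genes.

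Between the old groups, 1 of the 47 genes was called, beside 0.669% of all genes. Cd22, an inhibitory receptor of B cells that microglia express as well, had 13 to 44 reads in old control and 46 to 111 in old anti-miR-mix libraries. The groups overlapped in CPM, where old anti-miR-mix libraries 6 and 1 (1.53 and 1.55 CPM) lay under old control library 3 (1.64 CPM). The log2 difference of Cd22 was 1.37 ± 0.28 (SE, adjusted p = 0.0259 by edgeR), and the adjusted p ran from 0.00115 to 0.235 over its alternatives. The call was lost with processing group as a term, with the young group left out of the fit, with old control libraries 5 and 6 as 1, and without old control library 1, 2, 5 or 6 or old anti-miR-mix library 2, 3, 4 or 5. The median of the 47 genes was 0.32, beside 0.00 for all genes, and 37 of 47 lay above 0.

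For old anti-miR-mix against young, 7 of the 47 genes were higher and 1 lower, beside 6.2% of all genes. Higher were Cd22 (log2 fold change 2.23 ± 0.31 (SE), adjusted p = 0.00012 by edgeR) and Blnk (0.57 ± 0.11 (SE), adjusted p = 0.00215), an adaptor of the B cell receptor, in the B cell list. Prdm1, the regulator of plasma cell fate, rose by 0.62 ± 0.17 (SE, adjusted p = 0.035 by edgeR), and Ighd, the heavy chain of IgD on naive B cells, by 0.79 ± 0.20 (SE, adjusted p = 0.0169 by edgeR). Icos, a co-stimulatory receptor of activated T cells, rose by 0.85 ± 0.19 (SE, adjusted p = 0.00927 by edgeR), Trac, the constant region of the T cell receptor alpha chain, by 0.73 ± 0.20 (SE, adjusted p = 0.0314 by edgeR), and Lck, the kinase of the receptor, by 0.37 ± 0.11 (SE, adjusted p = 0.0499 by edgeR). Xbp1 was again lower, by −0.18 ± 0.05 (SE, adjusted p = 0.0418 by edgeR). Blnk, Cd22, Icos and Ighd kept their call in each of 13 fits with a library left out, whereas Prdm1, Trac, Lck and Xbp1 kept it in 5, 7, 3 and 5 of them. Those of Lck and Xbp1 were also lost with old control libraries 5 and 6 as 1. The count of 8 was 5 without young library 1 or old anti-miR-mix library 2 or 4, and 4 without old anti-miR-mix library 7. Without young library 3 and old anti-miR-mix libraries 4 and 7, 3 genes were called in place of 8, namely Blnk, Cd22 and Tnfrsf13b. Of more specific B cell genes in the list, Cd79b was tested and did not pass (log2 fold change −0.16 ± 0.31 (SE)), and Cd79a and Ms4a1 had too few reads.

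**Figure D5:**
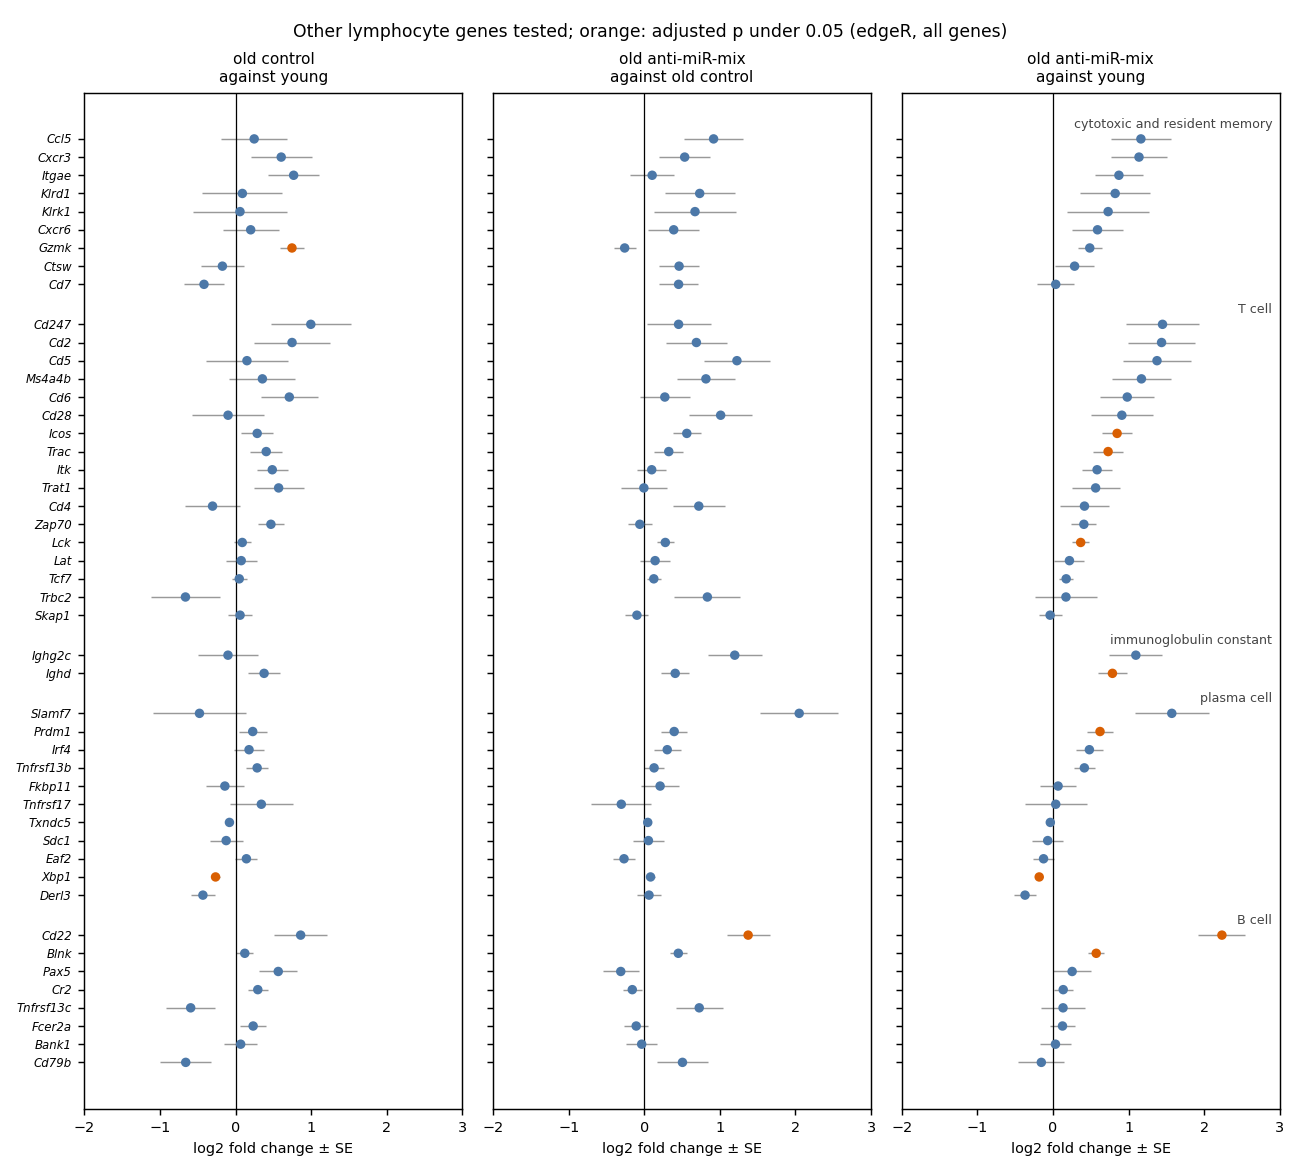
Log2 fold change ± SE (x axis) of the 47 further lymphocyte genes tested (y axis, grouped by list) in the 3 comparisons. Orange points have an adjusted p under 0.05 in edgeR's fit over all genes. There are 2 of them for old control against young, 1 (Cd22) for old anti-miR-mix against old control and 8 for old anti-miR-mix against young.

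By list, for old anti-miR-mix against young, 2 of 8 B cell genes, 1 of 11 plasma cell genes, 1 of 2 immunoglobulin constant genes, 3 of 17 T cell genes and 0 of 9 cytotoxic and resident memory genes were higher. The medians of these lists were 0.13, 0.04, 0.94, 0.58 and 0.73 on the log2 scale, beside 0.00 for all genes. In the cytotoxic list all 9 genes lay above 0, led by Ccl5 at 1.16 ± 0.40 (SE), a chemokine of effector T cells. The plasma cell list held genes of secretion that other cells use as well, and Sdc1, the surface marker of plasma cells, had 10 to 34 reads in all libraries and a log2 fold change of −0.07 ± 0.21 (SE).

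Some genes that attract, hold or sustain lymphocytes were higher under the inhibitors. Of 13 tested, 0 were called for old control against young, where 2.67% of all genes were. For old anti-miR-mix, 2 were called against old control (0.669% of all genes) and 5 against young (4.57% of all genes were higher), all higher. Ccl3, a chemokine of activated microglia and macrophages, rose by 1.49 ± 0.34 (SE) against old control (adjusted p = 0.0439 by edgeR) and Cxcl16, the ligand of Cxcr6, by 1.04 ± 0.23 (SE, adjusted p = 0.0402 by edgeR). Both calls against old control were lost in 5 of 10 other settings, among them processing group as a term and old control libraries 5 and 6 counted as 1, and kept in 4 of 13 fits with a library left out. Against young, Ccl4 rose by 1.94 ± 0.44 (SE, adjusted p = 0.0093 by edgeR) and the adhesion receptor Icam1 by 0.74 ± 0.16 (SE, adjusted p = 0.00586 by edgeR). Cxcl13, which attracts B cells, had 1 to 20 reads in young and 9 to 65 in old control libraries, with a log2 fold change of 1.96 ± 0.57 (SE) that did not pass (adjusted p = 0.0653 by edgeR).

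Markers of the other cells that a CA1 sample can hold were read beside these values. The shares of all genes called were 2.67% for old control against young, 0.669% between the old groups and 6.2% for old anti-miR-mix against young. Of 5 tested neutrophil and monocyte genes, 3 were called for old anti-miR-mix against young (S100a8, S100a9 and Ccr2, all higher) and 0 in the other comparisons, and their summed level was 0.730 to 3.77 CPM in young, 0.470 to 4.53 CPM in old control and 2.71 to 10.9 CPM in old anti-miR-mix libraries. The granule genes Ngp, Camp and Retnlg had 0 to 4 reads per library. Of 5 erythroid genes 0 were called in any comparison, led by Hbb-bs and Hba-a1, and their sums of 21.9 to 45.3, 17.9 to 43.6 and 15.1 to 42.1 CPM overlapped between all groups. Of 6 choroid plexus genes, led by Ttr and Kl, and of 9 leptomeningeal fibroblast genes, led by Dcn and Igf2, 0 were called, and Ttr ran from 19 to 2380 reads between single libraries. Of 7 border macrophage genes, Ms4a7 was called for old anti-miR-mix against young. Of 6 microglial genes, 2 were called for old control against young (Cx3cr1 and Sall1, both higher), and both were also called for old anti-miR-mix against young. Of 5 CA1 pyramidal genes, Wfs1 was lower for old anti-miR-mix against young and 0 were called otherwise. With a library left out, the calls of Cx3cr1 and Ms4a7 were kept in all fits, those of Sall1 (old control against young, 12 fits) and Wfs1 (13 fits) in 4, and those of S100a8, S100a9 and Ccr2 in 7, 9 and 5 of 13. The call of Sall1 for old control against young was also lost with old control libraries 5 and 6 as 1. The part of blood, meninges, choroid plexus or microglia in the lymphocyte values was not tested.

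Over the 19 libraries, the tested genes whose CPM ranked most like that of Ighm were B3galt5 (Spearman's rho 0.87), Ptgs2os (0.87), Abcg3 (0.85), Parvg (0.84) and Spag6 (0.84). Those most like Cd8a were Gimap3 (0.89), a GTPase of lymphocytes, Erbin (0.86), Glipr2 (0.86), Cxcr6 (0.85), a receptor of resident memory T cells, and Il33 (0.85). B3galt5 ran from 53.7 to 90.9 CPM and Gimap3 from 0.145 to 2.13 CPM. These are the highest of many correlations over libraries that also share group and depth, and carry no test.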

How the data were processed

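The authors sequenced polyadenylated RNA as single-end reads of 50 bases; per the submitters' processing notes and the study's methods, tools were FastQC 0.11.5, STAR 2.5.2b and featureCounts of Subread 1.5.1 on mm10. For 19 libraries the authors deposited raw gene counts, together with a log2 table of 18761 genes. With CPM over reads of these genes, the table equalled log2(CPM + 1) minus a slope times a library number from 1 to 4. That number is called processing group here, although the sources do not describe it. It was the only use of the table, and 0 of the table's columns lacked a sample. Settings for strand and multi-mapping reads were not given. All CPM values printed here were taken over all reads of a library. The 19286 of 48709 genes with 5 reads or more in 50% of libraries were tested with edgeR 4.0.16 in R 4.3.3 (TMM, quasi-likelihood, all groups in 1 fit, Benjamini-Hochberg over all genes, threshold 0.05), and DESeq2 1.42.0 was an alternative. The scripts were tested on simulated data. The 10 genes and all lists were chosen with earlier results of these data known. Named from each list were at most 4 genes past the threshold by lowest p, or else the 2 highest in CPM, and further names were chosen after their values were seen. Symbols came from GENCODE M21 for 48349 of 48709 genes. The replicate numbers did not pair the libraries. Some listed genes are not reported here.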

Additional observations from a re-analysis of the deposited data

Results flagged for a closer look

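Of 41 sets of libraries of 1 group examined for a value far from the others, 6 had one. Chance gives about 1 in 20 where values are normally distributed, which low counts are not, and 3 of the 6 are related immunoglobulin values of the same library. Young library 3 stood apart from the other 5 young libraries in Igkc (0.988 CPM), in Igha (1.38 CPM) and in all immunoglobulin variable segments (0.838 CPM). Old anti-miR-mix library 3 stood apart in Ighg1 (1.95 CPM), library 6 of that group in Ighg2b (4.30 CPM) and library 4 in all T cell receptor variable segments (1.06 CPM, 34 reads).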

How the results depend on the processing

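The count of the 10 genes called for old control against young was 1, and 2 with processing group as a term, with the young and old control groups alone in the fit, and with old control libraries 5 and 6 as 1 together with processing group as a term, a setting chosen after the data were seen. It was also 2 with a replicate block. Replicate numbers did not pair the libraries, since 7 of 18 same-numbered pairs correlated over 0.1 (range −0.35 to 0.37). The count was 0 for old anti-miR-mix against old control in all settings, and 2 to 3 for old anti-miR-mix against young. For the other lymphocyte genes the count for old control against young (2) was 1 with DESeq2 and 1 with libraries 5 and 6 as 1 and processing group as a term. For old anti-miR-mix against old control (1) it was 3 with DESeq2, 3 with the replicate block, and 0 with processing group as a term, with 2 groups alone, with libraries 5 and 6 as 1, and with both of the latter and processing group. For old anti-miR-mix against young (8) it was 12 with DESeq2, 10 with the replicate block, 4 with 2 groups alone and 3 without the 3 libraries with most Igha reads. Leaving out 1 library gave 0 to 4 for old anti-miR-mix against old control and 4 to 12 for old anti-miR-mix against young. The B lineage share was 64.0%, 75.4% and 70.7% without Ighm. Without young library 3 the young mean fell from 0.236 to 0.0075 CPM for Igha and from 0.235 to 0.0842 CPM for Igkc. Counts of 0 to 20 reads, as for most T lineage values, limit what can be told apart. In no setting did a called value change sign, and the cause of the changes was not tested.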
